A study of Mus musculus with 6 samples.

Results

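The genes described here are the heat shock proteins and the J-domain cochaperones. They were read in RNA-seq of whole testis from males aged 21 days, with 3 WT and 3 Trf2-/- samples. Each sample is called a mouse, though the sources used here do not state that it came from a single animal. A gene was a member if it was protein coding and its name began with Hsp or Dnaj in the numbered style of these families (Hspa2, Hsp90b1, Dnajb1), and 71 of the 26743 genes of the count table met this rule, among 19296 protein coding genes. WT males carried unaltered Trf2, and Trf2-/- males lacked it on both alleles. Neither genotype received a treatment, and how the null allele was made is not given in the sources used here. The study's methods name a 129/SvPas background in their account of the line with tagged Trf2. Trf2 (gene Tbpl1) is a relative of the TATA-box binding protein that is abundant in male germ cells, and the comparison of genotypes asks how its loss alters gene expression in a testis that has reached the first haploid cells.

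Heat shock proteins are chaperones that help other proteins fold, and many are made by every cell. HSP70 proteins hold unfolded chains and release them through cycles of ATP hydrolysis. J-domain proteins deliver the chains and start the hydrolysis, and nucleotide exchange factors such as the HSP110 proteins reset the cycle. HSP90, the ring-shaped HSP60 and the small heat shock proteins act beside them. Germ cells are unusual in replacing or supplementing the common forms with their own paralogs, of which Hspa2, needed for male meiosis, is the best known. The germ cell list held 10 genes, of which 9 were in the table used (Dnajb8 was not analysed here), and the general list held 32 members of the cytosol, endoplasmic reticulum and mitochondria. The remaining 30 members were in neither list.

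Gene totals ran from 21582123 to 29859347 counts in WT and from 15187062 to 24530489 in Trf2-/- mice, so that 3 counts, taken as the floor, stood for 0.105 to 0.190 CPM (counts of a gene per 1000000 counts of the library). Tbpl1 had 8840, 7391 and 6119 counts in WT and 1586, 1500 and 882 in Trf2-/- testes, in accordance with the labels. Levels are given as CPM on TMM-scaled library sizes, and levels of different genes are compared only as CPM per kilobase of deposited gene length. Such ranks, shares and ratios depend on that length, and whether the transcripts made in testis have it was not tested. Of the members, 68 passed the filter on low counts. Dnajb7, Dnajc22 and Hspb3 did not, with at most 10 counts in any mouse.

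Most germ cell chaperones were lower in Trf2-/- testis, and general chaperones changed in both directions around a median near 0. Of the 8 germ cell chaperones tested, 7 fell (adjusted p under 0.05) and 0 rose, whereas of all 16924 genes tested 20.2% fell and 11.2% rose. Among the 7, Dnajc5b passed the filter on low counts only through its WT counts and had little room to be called higher. With at least 10 counts required in every sample, 5 of 6 germ cell chaperones fell. At an unadjusted p under 0.05 also 0 germ cell chaperones were higher, and DESeq2 called 7 lower and 0 higher. Their median log2 fold change was -0.48, with the same median when Dnajc5b was set to its bound, against -0.06 for the 32 general chaperones and 0.04 for all tested genes. Of the general chaperones 8 fell and 3 rose. The summed level of the general chaperones was 8112 to 8160.2 CPM in WT and 7738 to 8038 CPM in Trf2-/-, without overlap, and that of the germ cell chaperones was 3125 to 3379 against 2445 to 2756 CPM. The median per mouse (log2 of CPM plus 0.5 over the WT mean) was -0.49, -0.37 and -0.68 for germ cell chaperones in the 3 Trf2-/- mice, and between -0.04 and -0.02 for general chaperones. The difference between the lists was described and not tested.

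**Figure D1:**
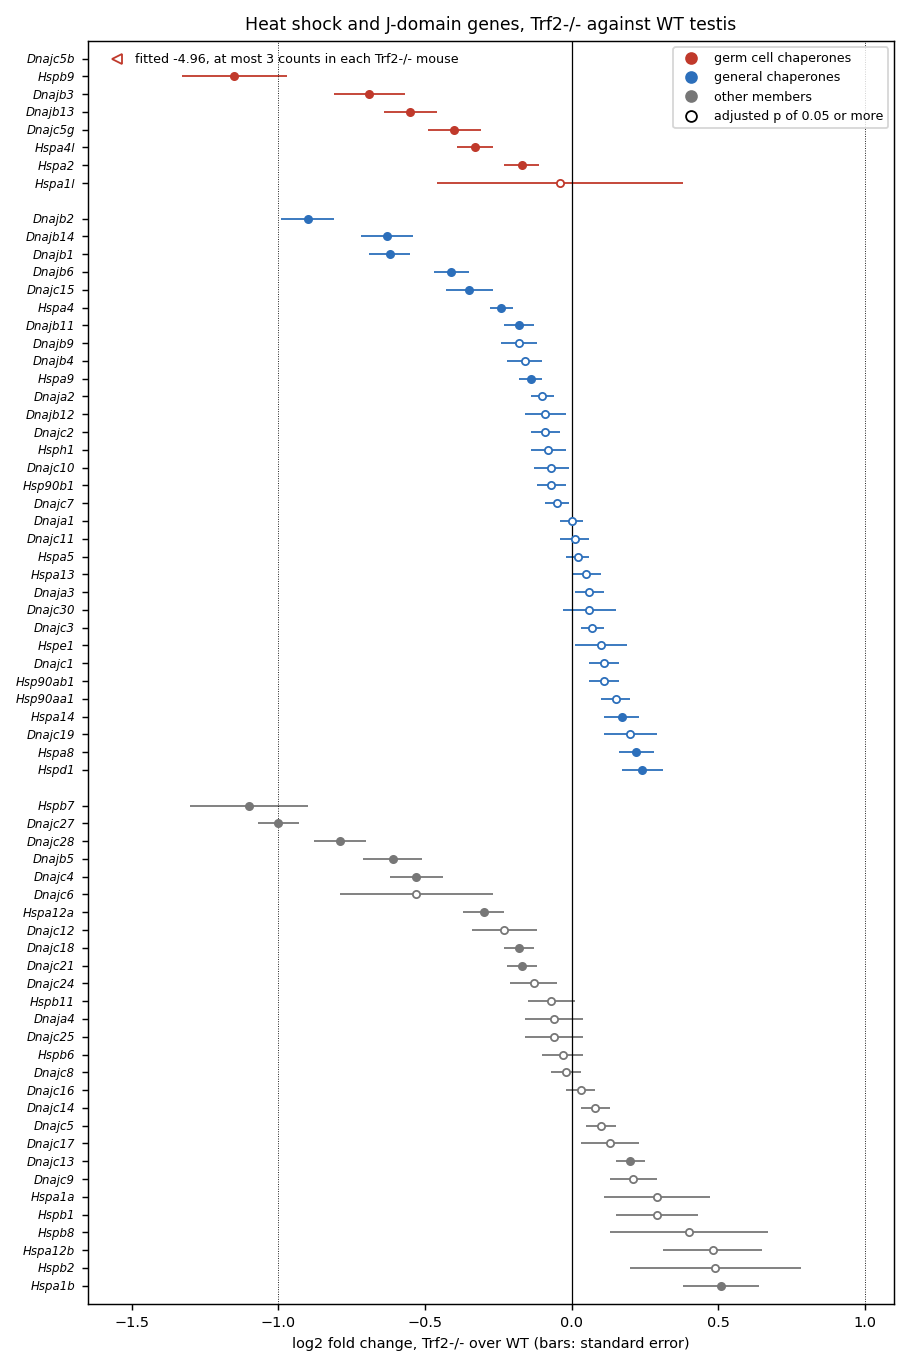
Log2 fold change of Trf2-/- over WT (x axis) for 68 tested members (y axis), grouped as germ cell, general and other members; points are edgeR estimates, bars are standard errors, filled points have an adjusted p under 0.05, and the dotted lines mark 2-fold changes. The germ cell group lies to the left of 0 with 6 filled points and Dnajc5b, also called and drawn as a triangle that points beyond the axis, and the general group is centred near 0 with a median of -0.06.

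Over all members 23 fell, 5 rose and 40 did not pass the test. The share that fell was 33.8%, beside 20.2% of all genes, and the share that rose was 7.35%, beside 11.2%. At least 2-fold decreases were called for 4 members, beside 4.30% of all genes, and 2-fold increases for 0 members by edgeR and by DESeq2, beside 0.609%. With at least 10 counts required in every sample, which leaves out Dnajc5b, 3 members were at least 2-fold lower. The 3 mice of each genotype were fully separated for 28 members that were lower in Trf2-/- and 13 that were higher, beside 26.8% and 22.3% of all tested genes. Lower genes made up 82.1% of the member calls with TMM factors and 56.2% when library size alone was used, with 18 lower and 14 higher. The share over all genes moved likewise from 64.4% to 38.7%. The number of members that rose was 2 without WT mouse 1, 1 without WT mouse 2, 3 without WT mouse 3 and 2 without Trf2-/- mouse 1.

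Markers of the cells of a testis moved too. Counts of called markers stand beside 20.2% of all tested genes lower and 11.2% higher. The summed level of 9 round spermatid markers was 19.9 to 22.3 CPM in WT and 8.34 to 11.2 CPM in Trf2-/-, and 7 of the 9 fell. Of 6 elongating spermatid markers 3 could be tested and fell, and the sum was 5.81 to 6.97 against 0.885 to 1.54 CPM. Of the spermatid markers that fell, Acrv1, Spaca7, Tssk2, Catsper3, Catsper4, Izumo1, Odf1, Akap4 and Oaz3 passed the filter on low counts only through their WT counts. They had little room to be called higher. Tnp1, Prm2 and Prm3, which define later steps, had means of 0.0787, 0.0288 and 0.0360 CPM in WT, and Prm2 and Prm3 were at 0 in Trf2-/-. The 8 spermatocyte markers summed to between 4919.7 and 5148 CPM in WT and between 3634 and 4193 CPM in Trf2-/-, with Sycp1, Sycp3 and Hormad1 higher and Piwil1, Ldhc, Pgk2, Ccna1 and Ybx2 lower. Sertoli cell markers summed to 735 to 744 against 788 to 819 CPM (2 of 7 rose) and macrophage markers to 176 to 199 against 201 to 397 CPM (5 of 7 rose). Sums of spermatogonial, Leydig and peritubular markers overlapped between genotypes. The part of cell composition in the changes of chaperone genes was not tested, and in whole testis fewer cells of a type and less RNA per cell cannot be told apart.

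**Figure D2:**
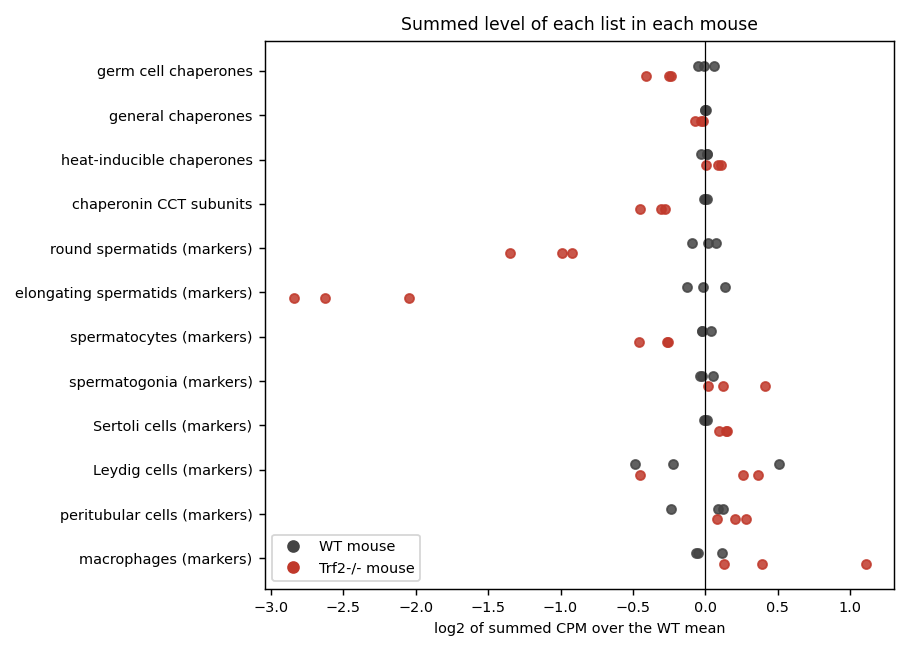
Summed level of each gene list in each mouse, as log2 of the summed CPM over the WT mean (x axis), for chaperone lists and marker lists (y axis); each point is 1 mouse. The sums of germ cell chaperones, CCT subunits, spermatid markers and spermatocyte markers sit to the left in the 3 Trf2-/- mice. General chaperones sit close to 0. Of the 8 spermatocyte markers 5 were lower and 3 higher.

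Hspb9, a small heat shock protein made almost only in testis, was the germ cell chaperone with the largest decrease among those above the floor. It is an intron-less gene (ENSMUSG00000017832, NCBIM37 chr11:100575164-100575889, plus strand). Its level was 169, 170.1 and 173 CPM in WT and 82.3, 95.7 and 51.1 CPM in Trf2-/- testes. The genotypes did not overlap, and the lowest value was that of Trf2-/- mouse 3, which also had the fewest counts. The log2 fold change was -1.15 ± 0.18 (SE, adjusted p = 0.00172), a 2.22-fold decrease, and it was -0.93 without Trf2-/- mouse 3. Hspb9 made up 86.4% ± 0.587 (SD, n = 3) of the summed per-kilobase level of the members named Hspb in WT and 72.0% ± 6.62 in Trf2-/-. The exact permutation test of this share gave p = 0.1, two-sided, and 0.1 is the smallest value that 3 mice against 3 can give.

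Dnajb3, a J protein of spermatids, and Dnajb13, a J protein of the sperm flagellum, fell together with Hspb9. Dnajb3 measured 154, 143 and 143 CPM in WT and 97.6, 103 and 71.3 CPM in Trf2-/- (log2 fold change -0.69 ± 0.12, adjusted p = 0.00256). Dnajb13 measured 37.8, 32.6 and 34.6 CPM in WT and 24.8, 25.5 and 21.0 CPM in Trf2-/- (-0.55 ± 0.09, adjusted p = 0.00208). In both genes each Trf2-/- mouse lay below each WT mouse. Dnajb3 has 1 exon (chr1:90101307-90102323, minus strand) and lies in introns of the Ugt1a genes on the opposite strand, with 0 exon bases shared. Dnajb13 is at chr7:107651527-107663469 on the minus strand, with up to 8 exons.

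The germ cell forms of cysteine string protein, vesicle-bound J proteins whose common form is Dnajc5, were also lower. Dnajc5g measured 91.9, 93.3 and 95.4 CPM in WT and 74.4, 77.3 and 59.8 CPM in Trf2-/- (log2 fold change -0.40 ± 0.09, adjusted p = 0.00818). Dnajc5b was a rare transcript with 17, 22 and 10 counts in WT and 1, 0 and 0 in Trf2-/- testes (adjusted p = 0.00123). Since the Trf2-/- mice were at or below the floor of 3 counts, Dnajc5b was at least 3.37-fold lower, against the highest floor of a Trf2-/- mouse. It shares 27 exon bases with 1700064H15Rik on the opposite strand, which was itself lower (-0.88), and 18.0% of its exon windows of 50 bases occur elsewhere in the genome. Dnajc5 measured 111, 103 and 102 CPM in WT and 109.9, 109.8 and 119 CPM in Trf2-/-, with overlapping genotypes (0.10 ± 0.05, adjusted p = 0.204).

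Hspa2 and Hspa4l, the abundant HSP70 and HSP110 of meiotic and haploid germ cells, changed least among the called germ cell chaperones. Hspa2 (ENSMUSG00000059970, chr12:77505163-77507921, plus strand) measured 1799, 1679 and 1593 CPM in WT and 1515, 1550.3 and 1435 CPM in Trf2-/-. The groups did not overlap, but the highest Trf2-/- mouse was close to the lowest WT mouse. The log2 fold change was -0.17 ± 0.06 (adjusted p = 0.0466), and the call was lost in 8 of 12 alternatives, over which the adjusted p ran from 0.0255 to 0.261. Hspa4l measured 1126, 1101 and 1085 CPM in WT and 931, 903 and 805 CPM in Trf2-/- (-0.33 ± 0.06, adjusted p = 0.00336). Its common relative Hspa4 fell as well, from 490.4 ± 3.99 to 414 ± 14.1 CPM (SD, n = 3; -0.24 ± 0.04, adjusted p = 0.00320). The ratio of Hspa4l to Hspa4 per kilobase was 1.20 ± 0.0133 in WT and 1.14 ± 0.0703 in Trf2-/-, and the genotypes overlapped (exact permutation test, p = 0.300).

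Hspa1l and Dnajb7 were close to the limit of detection. Hspa1l, the germ cell gene of the HSP70 cluster on chromosome 17, had 16, 20 and 10 counts in WT and 7, 15 and 15 in Trf2-/- (log2 fold change -0.04 ± 0.42, adjusted p = 0.948), and no difference was detectable at this depth. It shares 1778 exon bases with the noncoding gene Gm10501 on the opposite strand. Dnajb7 had 1, 3 and 2 counts in WT and 4, 0 and 4 in Trf2-/-, and it was not tested.

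**Figure D3:**
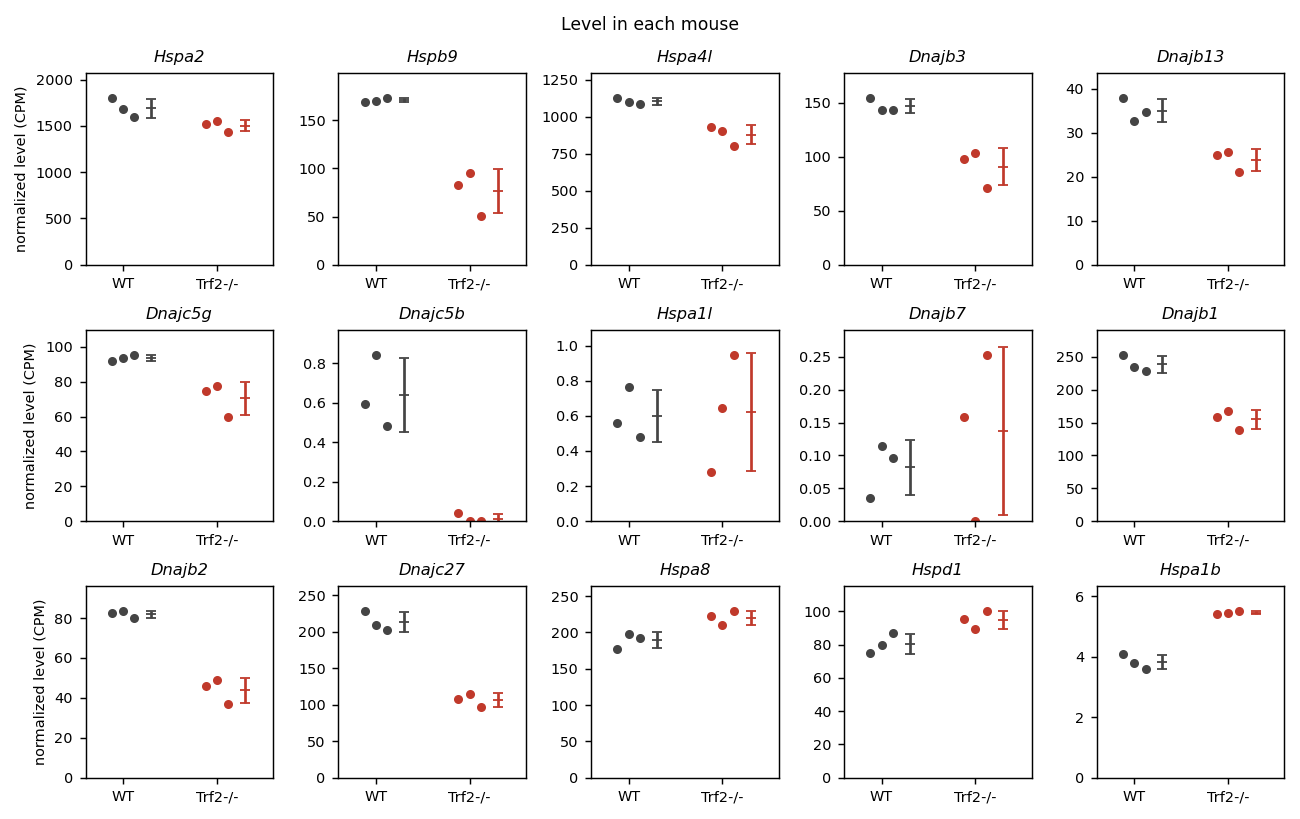
Level in CPM (y axis, starting at 0) in each WT and each Trf2-/- mouse (x axis) for the 9 germ cell chaperones and 6 other members; points are mice, and the bars beside them give the mean ± SD (n = 3). Hspb9, Dnajb3, Dnajb13, Dnajc5g, Dnajc5b, Hspa4l, Hspa2, Dnajb1, Dnajb2 and Dnajc27 have no overlap between genotypes with Trf2-/- lower. Hspa8, Hspd1 and Hspa1b have none with Trf2-/- higher. Of all tested genes, 26.8% were separated with Trf2-/- lower and 22.3% with Trf2-/- higher.

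The sequences before the starts of the germ cell genes Hspb9, Hspa2 and Dnajb3 are shown as examples from germ cell forms with high levels that were called lower, a set that also holds Hspa4l. The call of Hspa2 was lost in 8 of 12 alternatives. For Hspb9 (chr11:100575014-100575163, plus strand) and Hspa2 (chr12:77505013-77505162, plus strand) they are the 150 bases before the first annotated start in NCBIM37, and for Dnajb3 (chr1:88205749-88205898, minus strand) the 150 bases before the RefSeq start in GRCm38.p6. Capitals mark CCAAT and the cAMP response element TGACGTCA or its shorter form TGACG, on either strand.
Hspb9: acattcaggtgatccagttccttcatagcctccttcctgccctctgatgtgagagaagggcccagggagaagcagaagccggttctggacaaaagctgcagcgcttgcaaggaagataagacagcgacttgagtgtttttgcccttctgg
Hspa2: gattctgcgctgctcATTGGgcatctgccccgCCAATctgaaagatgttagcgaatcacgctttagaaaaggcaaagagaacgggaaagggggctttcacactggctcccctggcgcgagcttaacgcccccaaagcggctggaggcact
Dnajb3: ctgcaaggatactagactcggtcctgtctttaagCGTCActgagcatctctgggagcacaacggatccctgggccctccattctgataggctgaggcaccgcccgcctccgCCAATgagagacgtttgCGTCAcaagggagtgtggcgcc
The window of Dnajb3 holds CCAAT at -39 and TGACG on the minus strand of the gene at -116 and -22, counted from the start. The window of Hspb9 holds none of these letters. The window of Hspa2 holds CCAAT on both strands and no TGACG. The RefSeq promoter of Hspa2 (GRCm38.p6) has another start and holds TGACG at -139 and CCAAT at -29, both on the minus strand of the gene.

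In WT testis the levels of germ cell chaperones spanned the range of the members. Of the 9, Hspa2, Hspb9, Dnajb3 and Hspa4l held ranks 1, 5, 9 and 10, Dnajc5g and Dnajb13 ranks 16 and 31, and Dnajc5b, Hspa1l and Dnajb7 ranks 66, 67 and 71. Hspa2 ranked first of the members per kilobase of gene length, at 671 ± 41.1 CPM per kilobase (SD, n = 3). It was followed by Hsp90b1, the HSP90 of the endoplasmic reticulum, at 447 ± 9.94. Hspa5, the HSP70 of the endoplasmic reticulum, at 327 ± 7.14, and Hsp90aa1, an inducible cytosolic HSP90, at 325 ± 7.65, differed by less than their spread. Hspb9 had rank 5 in WT, at 235 ± 2.85 CPM per kilobase, and rank 8 in Trf2-/-, at 105 ± 31.5. The common HSP70 Hspa8 stood at 74.0 ± 4.14 CPM per kilobase in WT and 86.3 ± 3.85 in Trf2-/-.

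Hspa2 alone made up 89.7% ± 0.973 of the per-kilobase level of cytosolic HSP70 (Hspa1a, Hspa1b, Hspa1l, Hspa2 and Hspa8) in WT and 86.9% ± 0.941 in Trf2-/- (SD, n = 3). The values per mouse were 90.8%, 89.3% and 89.1% in WT and 87.0%, 87.8% and 85.9% in Trf2-/-, without overlap (exact permutation test, p = 0.1). Hspa2 was 9.10 ± 1.03 times Hspa8 in WT and 6.92 ± 0.572 times in Trf2-/- (exact permutation test, p = 0.1). Of the exon windows of 50 bases, 37.3% of Hspa8, 61.0% of Hspa1a and 62.3% of Hspa1b occur elsewhere in the genome, against 0% of Hspa2, and how reads in them were counted is not known, so the share and the ratio may be too high if such reads were left out. All members together took 1.21% ± 0.0140 of the unscaled counts in WT and 1.20% ± 0.0242 in Trf2-/-, with overlapping genotypes (exact permutation test, p = 0.5). On TMM-scaled library sizes their summed level was 12412 to 12713 CPM in WT and 11243 to 11819 CPM in Trf2-/-, without overlap. Whether the total differed thus depended on the scaling.

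**Figure D4:**
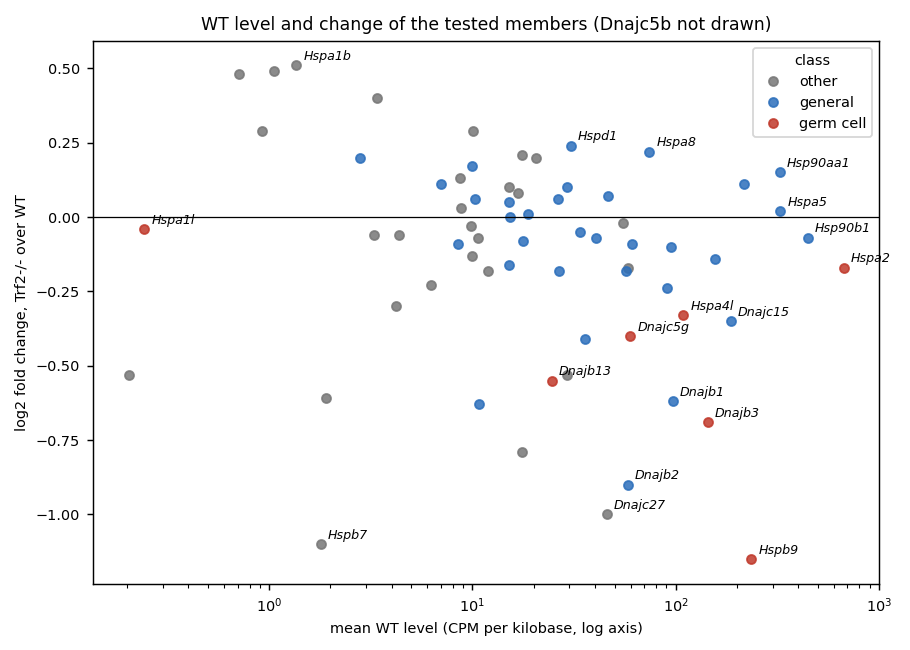
Log2 fold change of Trf2-/- over WT (y axis) against the mean WT level in CPM per kilobase (x axis, log scale) for the tested members other than Dnajc5b; colours give the class and named points are labelled. The germ cell chaperones at higher levels lie below 0, from Hspa2 at -0.17 to Hspb9 at -1.15. Of the labelled general chaperones, Hsp90b1, Hspa5 and Hsp90aa1 lie between -0.07 and 0.15. Dnajc15, Dnajb1 and Dnajb2 lie at -0.35, -0.62 and -0.90, and Hspa8 and Hspd1 at 0.22 and 0.24.

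J proteins are divided by structure into types A, B and C. The type B genes, whose products have a J domain and a glycine-rich stretch without the zinc finger of type A, had 8 of 11 tested members lower and 0 higher, beside 20.2% and 11.2% of all tested genes. At an unadjusted p under 0.05 and in DESeq2 also 0 rose, and their median log2 fold change was -0.55. The 11 estimates were below 0 with TMM factors, and 10 of 11 with library size alone. Dnajb4, Dnajb9 and Dnajb12, named after their values were seen, did not pass the test (-0.16, -0.18 and -0.09). Of 4 type A genes 0 fell and 0 rose in edgeR and in DESeq2, with 1 lower at an unadjusted p under 0.05 and a median of -0.03. Of 27 type C genes 8 fell and 1 rose (29.6% and 3.70%), with a median of -0.06. The difference between the types was not tested.

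Dnajb2, a J protein that binds ubiquitin-tagged proteins, had the largest decrease among general chaperones. It measured 82.5, 83.4 and 80.0 CPM in WT and 45.8, 48.8 and 36.9 CPM in Trf2-/- (log2 fold change -0.90 ± 0.09, adjusted p = 0.000439). Dnajb1, the main heat-inducible J protein of the cytosol, measured 253, 234 and 229 CPM in WT and 158, 167 and 139 CPM in Trf2-/- (-0.62 ± 0.07, adjusted p = 0.000577). Its partner of type A, Dnaja1, was at 132 ± 0.692 and 132 ± 2.04 CPM (0.00 ± 0.04, adjusted p = 0.979), and its estimate took either sign over the alternatives. Dnajb1 per kilobase was 6.32 ± 0.346 times Dnaja1 in WT and 4.10 ± 0.354 times in Trf2-/-, without overlap (exact permutation test, p = 0.1). The size of this ratio rests on the deposited lengths, 2471 bases for Dnajb1 and 8629 for Dnaja1.

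Dnajb14, anchored in the membrane of the endoplasmic reticulum, fell from 102 ± 4.82 to 66.1 ± 9.41 CPM (-0.63 ± 0.09, adjusted p = 0.00162). Dnajb5 fell from 11.3 ± 0.479 to 7.39 ± 0.485 CPM (-0.61 ± 0.10, adjusted p = 0.00235). Dnajb6, which restrains protein aggregation, fell from 168 ± 8.82 to 126 ± 8.84 CPM (-0.41 ± 0.06, adjusted p = 0.00172). Of the Dnajb6 exon windows of 50 bases, 48.8% occur elsewhere in the genome, and 249 exon bases overlap Gm5129 on the opposite strand.

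Among type C genes the largest decrease above the floor was that of Dnajc27, which encodes a Rab-like GTPase with a J domain. It measured 228, 209 and 203 CPM in WT and 108, 115 and 96.5 CPM in Trf2-/-, a 2.01-fold decrease with no overlap (log2 fold change -1.0 ± 0.07, adjusted p = 0.000176). Without WT mouse 1 or Trf2-/- mouse 3 its estimate was -0.95 or -0.93, short of a 2-fold decrease. Dnajc28 fell from 62.3 ± 2.49 to 35.9 ± 4.80 CPM (-0.79 ± 0.09, adjusted p = 0.000614) and Dnajc4 from 31.6 ± 1.70 to 21.8 ± 2.27 CPM (-0.53 ± 0.09, adjusted p = 0.00211). Dnajc15, a J protein of the inner mitochondrial membrane, fell from 121 ± 6.41 to 94.8 ± 9.79 CPM (-0.35 ± 0.08, adjusted p = 0.00848). Dnajc13, which acts on endosomes, was the 1 type C gene that rose, from 158 ± 2.71 to 182 ± 8.84 CPM (0.20 ± 0.05, adjusted p = 0.0140). That call was lost without WT mouse 2 (largest adjusted p 0.0679).

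The promoter of Dnajc27 is shown because it was the 1 promoter of a member with the full cAMP response element TGACGTCA, the binding letters of CREB and of the germ cell factor CREM. RefSeq promoters (GRCm38.p6, 250 bases before to 50 bases after the start) were matched for 57 of the 71 members, and none was found for Dnajc5b. TGACGTCA was found in 1.79% of the 32851 RefSeq promoters and, counting a gene if any of its promoters holds it, as for the members, for 2.03% of 27025 genes. The 150 bases before the start (chr12:4082424-4082573, plus strand) carry it at -16, and capitals also mark CCAAT.
Dnajc27: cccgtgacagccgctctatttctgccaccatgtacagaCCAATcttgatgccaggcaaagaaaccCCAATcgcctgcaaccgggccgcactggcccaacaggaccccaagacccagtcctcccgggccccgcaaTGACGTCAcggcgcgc
The shorter TGACG, which lies within the full element, was found for 32 of the 57 members and 23.0% of all genes (20.8% of promoters). CCAAT was found for 25 of 57 and 41.1% of genes (37.4% of promoters), and TATAAA for 4 of 57 and 15.7% of genes (13.6% of promoters). These letters were searched on both strands, and a match is a description of the sequence only.

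Of the 14 tested members of the HSP70 and HSP110 family 5 fell (35.7%) and 3 rose (21.4%), beside 20.2% and 11.2% of all tested genes. The median log2 fold change of the family was -0.01. Besides Hspa2, Hspa4l and Hspa4 the genes that fell were Hspa12a, a distant HSP70 (24.2 ± 0.576 to 19.6 ± 1.19 CPM, -0.30 ± 0.07, adjusted p = 0.0132), and the mitochondrial Hspa9 (474 ± 3.18 to 429 ± 15.1 CPM, -0.14 ± 0.04, adjusted p = 0.0339). The call of Hspa12a was lost without WT mouse 2 (adjusted p = 0.0615), and that of Hspa9 in 7 of 12 alternatives (adjusted p from 0.0424 to 0.358). Hspa8, the constitutive HSP70 of all cells, measured 177, 198 and 192 CPM in WT and 222, 209.7 and 229 CPM in Trf2-/-, without overlap (0.22 ± 0.06, adjusted p = 0.0166). Its call was lost without WT mouse 1 or Trf2-/- mouse 1 (largest adjusted p 0.0678). Hspa14, which acts at the ribosome, rose from 57.9 ± 0.650 to 65.1 ± 3.54 CPM (0.17 ± 0.06, adjusted p = 0.0484), and this call was lost in 9 of 12 alternatives (adjusted p from 0.00834 to 0.151). Hspa5 was at 1149 ± 25.1 and 1166 ± 30.0 CPM, with overlapping genotypes (0.02 ± 0.04, adjusted p = 0.734).

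Of the 10 heat-inducible chaperones, 3 rose (Hspa1b, Hspa8 and Hspd1) and Dnajb1 fell, beside 11.2% and 20.2% of all tested genes, with a median log2 fold change of 0.18 beside 0.04 for all tested genes. Hspa1b, the stress-inducible HSP70, measured 4.08, 3.79 and 3.60 CPM in WT and 5.40, 5.45 and 5.50 CPM in Trf2-/- (0.51 ± 0.13, adjusted p = 0.0157). The genotypes did not overlap, and the call was lost without WT mouse 2 or WT mouse 3 (largest adjusted p 0.0595). Its copy Hspa1a measured 2.44, 2.95 and 2.73 CPM in WT and 2.70, 3.52 and 3.79 CPM in Trf2-/-, with overlap (0.29 ± 0.18, adjusted p = 0.247). Hspd1, the HSP60 of mitochondria, measured 75.1, 79.8 and 86.8 CPM in WT and 95.4, 89.5 and 100.1 CPM in Trf2-/- (0.24 ± 0.07, adjusted p = 0.0255). That call was lost without WT mouse 1, WT mouse 2 or Trf2-/- mouse 1 (largest adjusted p 0.101).

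The remaining heat-inducible genes did not pass the test as fitted. Hsp90aa1 was at 1224 ± 28.8 and 1356 ± 78.6 CPM (log2 fold change 0.15 ± 0.05, adjusted p = 0.0615). It was called higher in 3 of 12 alternatives, namely library size alone (adjusted p = 0.00564), no filter (0.0408) and without Trf2-/- mouse 3 (0.20, adjusted p = 0.00335). Hsph1, the inducible HSP110, was at 75.2 ± 3.44 and 71.2 ± 3.02 CPM (-0.08 ± 0.06, adjusted p = 0.306). Hspe1, the lid of HSP60, was at 22.6 ± 2.70 and 24.1 ± 1.08 CPM (0.10 ± 0.09, adjusted p = 0.437), and Hspb1 was at 10.4 ± 1.54 and 12.8 ± 1.74 CPM (0.29 ± 0.14, adjusted p = 0.143). Of 9 immediate early genes, which respond to tissue handling, 7 had estimates above 0 (median 0.53 on the log2 scale), and their sum was 40.9 to 45.8 CPM in WT and 42.7 to 67.9 CPM in Trf2-/-. At an unadjusted p under 0.05, 4 were higher. Fos passed the test in edgeR (adjusted p = 0.0485) but not in DESeq2 (adjusted p = 0.0763), and Junb passed in DESeq2 (adjusted p = 0.00989) but not in edgeR (adjusted p = 0.0547). Their part in the heat-inducible changes was not tested.

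The stress-inducible pair is shown because its reads are hard to assign. Hspa1b and Hspa1a lie 9960 bases apart on chromosome 17 in the same direction, and Hspa1l begins 578 bases beyond Hspa1a in the opposite direction (NCBIM37). The 150 bases before the RefSeq starts of Hspa1a (GRCm38.p6 chr17:34972157-34972306, minus strand) and Hspa1b (chr17:34959239-34959388, minus strand) differ at 1 base, and capitals mark CCAAT on the minus strand of the gene.
Hspa1a: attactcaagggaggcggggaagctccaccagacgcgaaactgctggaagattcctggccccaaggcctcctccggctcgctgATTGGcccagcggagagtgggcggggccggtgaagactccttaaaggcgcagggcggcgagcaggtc
Hspa1b: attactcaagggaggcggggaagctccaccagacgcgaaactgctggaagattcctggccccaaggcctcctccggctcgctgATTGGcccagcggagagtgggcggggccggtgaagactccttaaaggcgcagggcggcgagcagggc
The exons of Hspa1a and Hspa1b share 1710 windows of 50 bases, the length of the reads, which are 59.4% of those of Hspa1a and 62.1% of those of Hspa1b. How reads in such windows were counted is not given in the sources used here, so the values of both genes are uncertain.

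Over the members, 14 had more than 10% of their exon windows of 50 bases at more than 1 place in the genome, and 39 had 1% or less. Above 50% stood Hspa1b (62.3%), Hspa1a (61.0%), Hsp90aa1 (56.2%), Hspb1 (55.6%) and Hspd1 (50.9%). Hspa8 had 37.3%. Members with many repeated windows moved in both directions or did not pass the test. Hspa1b, Hspd1 and Hspa8 rose, Dnajb6 at 48.8% fell, and Hspa1a, Hsp90aa1 and Hspb1 did not pass. Of the other members that rose, Dnajc13 had 0% and Hspa14 4.08%. The part of repeated windows in these changes was not tested.

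**Figure D5:**
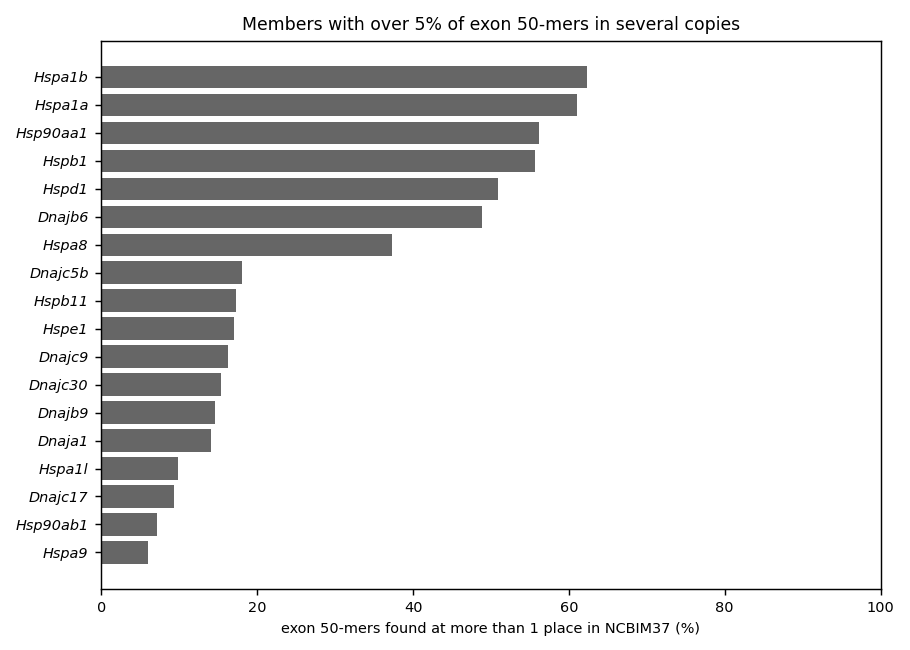
Share of exon windows of 50 bases that occur at more than 1 place in NCBIM37 (x axis, percent) for the 18 members above 5% (y axis). Hspa1b and Hspa1a are at the top with 62.3% and 61.0%, and Dnajc5b is the germ cell chaperone with the largest share, 18.0%.

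The heat shock element, the repeated site of heat shock factor, is shown for Hspe1. Elements of 3 units (GAANNTTCNNGAA, either strand) were found in 0.603% of RefSeq promoters, for 0.662% of genes, and for 4 of the 57 members, Dnajb6, Hspd1, Hspe1 and Hsph1. Elements with fewer units, other letters or a place farther from the start were not searched, so members without a match may hold them. Hspd1 and Hspe1 lie head to head on chromosome 1, overlap by 112 bases in NCBIM37 and share the element. A window of 30 bases before Hspe1 (GRCm38.p6 chr1:55088053-55088082, plus strand) carries overlapping matches at -89 and -84, in capitals.
Hspe1: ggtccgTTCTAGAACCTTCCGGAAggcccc
Of these 4 genes Hspd1 rose, Dnajb6 fell, and Hspe1 and Hsph1 did not pass the test. Among the heat shock factors, Hsf1 and Hsf2 did not pass the test either (log2 fold change -0.06 ± 0.05 and 0.08 ± 0.07, adjusted p = 0.400 and 0.361). Hsf5, named after its values were seen, fell from 301 ± 14.2 to 212 ± 14.2 CPM (-0.51 ± 0.06, adjusted p = 0.000679). Hsf4 and Hsfy2 did not pass the filter on low counts. Hsfy2 had 8, 14 and 15 counts in WT and 0, 1 and 0 in Trf2-/-.

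By compartment, the general chaperones of the cytosol had 4 of 14 genes lower and 2 higher (median log2 fold change -0.09), those of the endoplasmic reticulum 2 of 10 lower and 0 higher (-0.07), and those of mitochondria 2 of 8 lower and 1 higher (0.06). These counts stand beside 20.2% of all tested genes lower and 11.2% higher, and the lower counts lie near that share. In the endoplasmic reticulum also 0 were higher at an unadjusted p under 0.05 and in DESeq2. Of the 3 HSP90 genes 0 fell and 0 rose in edgeR and in DESeq2, with 1 higher at an unadjusted p under 0.05. Hsp90ab1, the constitutive cytosolic HSP90, was at 574 ± 20.3 and 620.3 ± 29.1 CPM (0.11 ± 0.05, adjusted p = 0.124), and Hsp90b1 at 1262 ± 28.1 and 1201 ± 43.7 CPM (-0.07 ± 0.05, adjusted p = 0.259). The ratio of Hsp90aa1 to Hsp90ab1 per kilobase was 1.5 ± 0.0752 in WT and 1.54 ± 0.147 in Trf2-/- (exact permutation test, p = 0.900).

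The small heat shock proteins were taken by name, as the members named Hspb. Of the 7 tested, Hspb9 and Hspb7 fell (28.6%) and 0 rose by either tool, at an unadjusted p under 0.05 as well. Of all tested genes 20.2% fell and 11.2% rose. Hspb7, best known from heart and skeletal muscle, measured 5.61, 4.21 and 5.04 CPM in WT and 2.42, 2.70 and 1.71 CPM in Trf2-/-, without overlap (log2 fold change -1.10 ± 0.20, adjusted p = 0.00339). It was -0.95 without Trf2-/- mouse 3. Without that mouse Dnajc5b alone of the 4 members stayed at a 2-fold decrease or more, and without WT mouse 1 the number was 2. The median of the tested members named Hspb was -0.03.

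Cofactors and other chaperones that are no members were read beside them, and their counts stand against 20.2% of all tested genes lower and 11.2% higher. Of 36 tested regulators and cofactors, such as the Bag nucleotide exchange factors and the HSP90 cofactors, 10 fell (27.8%) and 2 rose (Fkbp6 and Unc45a, named after their values were seen), with a median log2 fold change of -0.08. Of the 9 subunits of CCT, the chaperonin ring that folds actin and tubulin, 7 fell and 0 rose (77.8% lower), also 0 at an unadjusted p under 0.05 and in DESeq2, with a median of -0.29. Their 9 estimates were below 0 with TMM factors and 7 of 9 with library size alone. Tcp1 and its fellow subunit Cct6b, named after their values were seen, had log2 fold changes of -0.51 ± 0.06 (adjusted p = 0.000728) and -0.91 ± 0.13 (adjusted p = 0.00136). Of 9 lectin and disulfide chaperones of the endoplasmic reticulum 2 fell and 2 rose. Pdilt, a germ cell form, was low, at 1.46, 1.76 and 1.20 CPM in WT and 0.238, 0.257 and 0.442 CPM in Trf2-/- (-2.30 ± 0.32, adjusted p = 0.00111). In the same list, Clgn was at -0.37 ± 0.07 (adjusted p = 0.00388) and Calr3 at 0.06 ± 0.22 (adjusted p = 0.856). Clgn and Calr3 were named after their values were seen. Pdilt passed the filter on low counts only through its WT counts. Of 3 vesicle J proteins 1 rose (Dnajc13) and 0 fell, and of 3 nuclear J proteins 0 fell and 0 rose in edgeR and in DESeq2, with 1 higher at an unadjusted p under 0.05.

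The 3 further members that fell were Dnajb11, Dnajc18 and Dnajc21, named after their values were seen. Dnajb11, a J protein of the endoplasmic reticulum that works with Hspa5, fell from 181 ± 2.75 to 159 ± 7.63 CPM (log2 fold change -0.18 ± 0.05, adjusted p = 0.0206). Dnajc21, a cofactor of ribosome assembly, fell from 121 ± 4.58 to 107 ± 1.93 CPM (-0.17 ± 0.05, adjusted p = 0.0214). Dnajc18 fell from 61.8 ± 0.862 to 54.7 ± 1.31 CPM (-0.18 ± 0.05, adjusted p = 0.0266), and the Wald test of DESeq2 did not call it (adjusted p = 0.0553). Also chosen after their values were seen, Hspa12b and Hspb8 had large estimates that did not pass the test. Hspa12b, an HSP70 relative of blood vessels, measured 2.44, 3.03 and 2.35 CPM in WT and 3.69, 3.34 and 3.92 CPM in Trf2-/-, without overlap (0.48 ± 0.17, adjusted p = 0.0550). Hspb8 measured 5.12, 5.32 and 9.36 CPM in WT and 9.05, 10.8 and 5.82 CPM in Trf2-/-, so that mice of 1 genotype spanned nearly the range of the other (0.40 ± 0.27, adjusted p = 0.283).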

How the data were processed

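Total RNA came from whole testis of WT and Trf2-/- males at 21 days of age. The study's methods give 3 independent biological replicates per genotype. The RNA was depleted of ribosomal RNA and sequenced as single-end reads of 50 bases from a stranded kit. Per the labels, the authors aligned reads with TopHat2 2.0.10 and Bowtie2 2.1.0 to mm9 (NCBIM37), counted them with HTSeq 0.5.4p3 and normalized with DESeq2 1.0.19. The deposited table holds raw read counts per gene. The strand setting of the counting, its treatment of repeated reads and the annotation release are not given in the sources used here. A further 12 normalized per-sample columns, and the authors' columns of fold changes and p-values, were not used.

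Counts were tested with edgeR 4.0.16 in R 4.3.3 (TMM, filterByExpr, glmQLFit and glmQLFTest, no covariate), with Benjamini-Hochberg adjustment over 16924 genes holding 99.9% of the counts. The standard error was the size of the log2 fold change over the root of F. The biological coefficient of variation was 0.0838. Floors cover counting error only. Alternatives were DESeq2 size factors, library size alone, the DESeq2 1.42.0 Wald test, no filter beyond 1 count, at least 10 counts in every sample, a block by replicate number, leaving out each mouse in turn, and an adjusted p of 0.01. No pair of replicates agreed within sampling noise (chi-square at least 3.32 times its degrees of freedom).

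Named with values are the germ cell list, the members with the largest called changes (up to 12 in each direction), a set of common chaperones, and of other lists genes past a 2-fold change, with Hsf1 and Hsf2. The members and lists were chosen with earlier results of these data known. Exon windows were counted in NCBIM37, and promoters came from RefSeq.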

Additional observations from a re-analysis of the deposited data

How the results depend on the processing

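The counts of members that fell (23) and of germ cell (7) and general chaperones (8) that fell stayed within 1.5 times under every alternative run, and the germ cell median of -0.48 kept its direction. Increases were less stable. With library size alone 14 members and 8 general chaperones rose, in place of 5 and 3, and the general median turned from -0.06 to 0.04. With an adjusted p of 0.01, 0 rose in both counts. With a mouse left out, 1 to 5 members and 0 to 3 general chaperones rose, 1 to 4 members were at least 2-fold lower, and the general median was -0.06 to -0.03 (-0.04 without WT mouse 1, -0.03 without Trf2-/- mouse 3). General chaperones that rose were 0 without WT mouse 1 or Trf2-/- mouse 1 and 1 without WT mouse 2.

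Single genes below the threshold changed sign. With library size alone Hspa1l was 0.05, Hsp90b1 0.02, Hsph1 0.01 and Hsf1 0.04. With the DESeq2 Wald test Hspa1l was 0.00 and Dnaja1 -0.00, and Dnaja1 was -0.00 with DESeq2 size factors, -0.01 with at least 10 counts in every sample, -0.00 without WT mouse 1 or 2, -0.03 without Trf2-/- mouse 1 and -0.01 without Trf2-/- mouse 2. With a mouse left out Hspa1l ran from -0.40 to 0.34, with 0.17 without WT mouse 2 and 0.34 without Trf2-/- mouse 1, and Hspa5 was -0.01 without Trf2-/- mouse 2. Of 477 single-gene values 425 kept direction and side of the threshold, 33 fell below it and 4 rose past it. The cause was not tested.

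Same-numbered mice did not deviate together (correlations -0.0589, -0.083 and -0.0844). Counting noise can hold such correlations near 0, so whether the numbers pair mice was not settled. With a replicate block 21 members fell and 4 rose, and over all genes 3094 fell and 1486 rose. Depth limits Hspa1l, Dnajb7, Dnajc22 and Hspb3, whose counts lie near the floor.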
